A study of Bos taurus with 2 samples.

Results

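Broad H3K4me3 domains are stretches of chromatin in which nucleosomes carrying trimethylated lysine 4 of histone H3 extend far beyond a usual promoter peak. In the longissimus dorsi (LD) of Angus steers, 1023 such domains were found among 13912 merged regions on chromosomes 1 to 29. The domains were chosen by the length and position of the peaks themselves. Peaks of the tender and the tough library, called islands by the peak caller SICER, were merged where they overlapped by at least 1 bp, and a merged region was kept when it held at least 1 island of each library and was 5000 bp or longer. These domains made up 10.7% of the 9597 merged regions that both libraries shared. The remaining 8574 shared regions were shorter than 5 kb and serve below as the comparison. Length, overlap and score all come from the islands used in the choice, so these values describe the domains and are not tests.

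The LD, the muscle along the loin, was taken directly after harvest from purebred Angus steers of about 12 months. Meat tenderness was scored by Warner-Bratzler shear force (WBSF), which records how hard a blade must push through a core of cooked steak, after carcasses had hung at 4°C for 14 days. The 4 steers of lowest WBSF (6.77 ± 0.56 kg, as labelled) formed the tender group and the 5 of highest WBSF (19.93 ± 0.39 kg, as labelled) the tough group. Chromatin from the steers of a group was mixed in equal amounts, cut with micrococcal nuclease and precipitated for H3K4me3, giving 1 library per group. The labels name no treatment or genotype that separates the groups, and the pooling removed the spread between steers. A difference between the libraries therefore has no replicate check, no p-value is given, and all intervals cover counting error only.

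H3K4me3 is laid down by methyltransferases of the SET1 and MLL families and is read by factors that help RNA polymerase II to start transcription. At most active genes it forms a short peak around the transcription start site. In many cell types the broadest domains lie over genes that define the identity of the cell and over clusters of developmental regulators, and have been tied to steady transcription. Which genes the domains cover was not analysed here, because no annotation of the matching genome build was at hand, and for the same reason the muscle markers of the tissue were not checked.

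Positions are given as in the deposited lists, counted from 1. The study's methods name bosTau4, but the analysed lists state no build and reach 148.8 Mb on chromosome X, whereas a further pair of deposited lists of the same libraries ends at 87.9 Mb there. The build of the positions below is therefore not known.

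The domains ranged from 5000 bp to 30800 bp, with a median of 6000 bp and quartiles of 5400 and 7000 bp, so most lay close to the lower limit. Between 5 and 6 kb there were 500 domains (48.9%), between 6 and 8 kb 376 (36.8%), and between 8 and 10 kb 93 (9.09%). A length of 10 kb or more was reached by 54 domains (5.28%). No gap in length set the domains apart from shorter regions, because 134 domains measured exactly 5000 bp and 178 shared regions exactly 4800 bp, 1 window less. Just inside the limit, the domain at chr4:46472001-46477000 had a summed island score of 354.9 in the tender library and 359.2 in the tough library. The domain of the same length at chr28:3355801-3360800 had 350.0 and 262.7, and that at chr1:98391801-98396800 had 342.0 and 287.9. Just outside, the 4800 bp regions at chr7:54667601-54672400, chr19:13200601-13205400 and chr23:7817401-7822200 had tender scores of 311.0, 278.8 and 277.6 and tough scores of 146.8, 189.4 and 184.6. These 6 were picked as the highest tender scores at their lengths, far above the medians of 102.2 (tender) and 91.2 (tough) over all domains of 5 to 6 kb. In both libraries the 3 inside scored higher than the 3 outside, but extremes picked by score do not describe the other regions at the limit.

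SICER cuts the genome into windows of 200 bp and gives each window a score that rises as its read number becomes less likely under a Poisson background. The island score adds up its windows (natural log scale), so it grows with both the length and the read density of an island. The scores also give the depth of each library. The mean number of reads per window that fitted the scores was 0.1565 in the tender library and 0.1824 in the tough library, a ratio of 1.17 of tough to tender. The tough library was thus the deeper one, and the part of depth in the results below was not tested except where reads were scaled by it. For islands scoring up to 250, the scores also yielded the number of reads, with exactly 1 answer for 98.4% of all tender and 99.0% of all tough islands.

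The longest domain in the analysed lists spanned chr4:69317001-69347800, 30800 bp or 5.13 times the median. It was also the domain of highest score in each library, with 982.5 in the tender library and 787.3 in the tough library. Shared regions under 5 kb reached higher scores, up to 2371.6 (tender) and 1125 (tough). Tender islands covered 26000 bp of the longest domain and tough islands 30200 bp. In the tender library the break fell early, between an island of 5000 bp with a score of 97.8 (39 reads) and one of 21000 bp with 884.6. In the tough library it fell near the middle, between islands of 17200 and 13000 bp with scores of 377.8 and 409.6. Both libraries covered 82.5% of the stretch, and the 2800 bp at its left end were covered by the tough library alone. Its lead in length was not seen in the second pair of lists, where a domain on chromosome 2 measured 24600 bp, one on chromosome 4 21000 bp and one on chromosome 25 20200 bp.

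**Figure D1:**
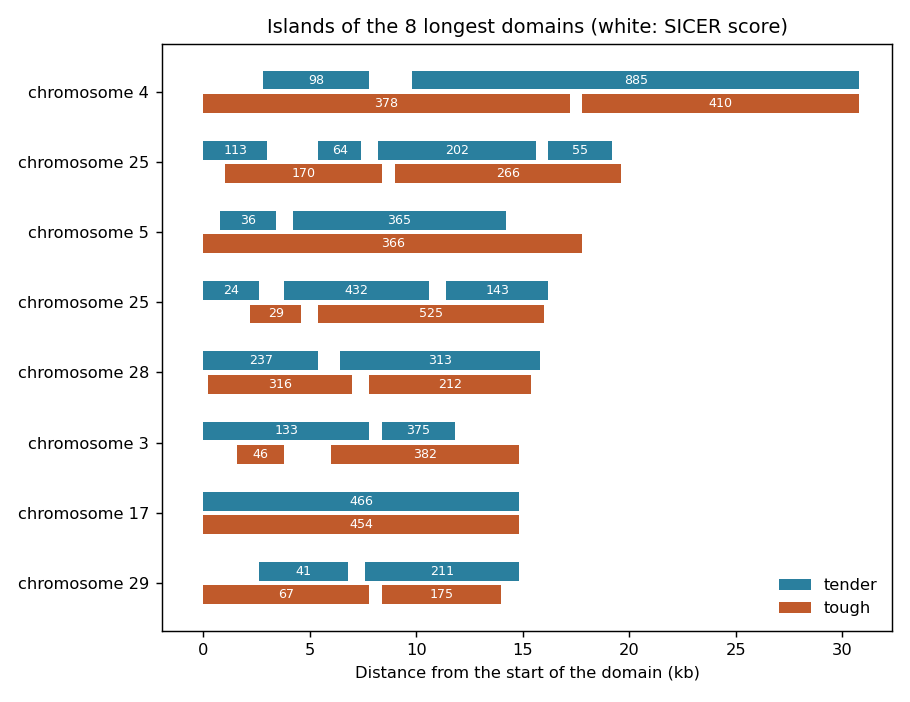
Islands of the 8 longest domains, drawn to scale as the distance in kb from the start of each domain, with tender islands above tough islands and the SICER score printed in white. The domain on chromosome 4 reached 30800 bp and the other 7 lay between 14800 and 19600 bp, and only the domain on chromosome 17 was 1 unbroken island with the same ends in each library.

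The next domains in length differed in how they were broken up. The second, at chr25:1505201-1524800 (19600 bp), had 4 tender islands and 2 tough islands, yet the summed scores were 433.8 and 435.7. The third, at chr5:26183401-26201200 (17800 bp), was a single tough island with a score of 366.0, where the tender library had an island of 2600 bp with 36.2 and one of 10000 bp with 365.2. These domains show scores that nearly matched over stretches that the libraries divided differently.

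A further domain on chromosome 25, at chr25:39417201-39433400 (16200 bp), scored 599.4 in the tender library and 554.6 in the tough library. The domain at chr28:29790801-29806600 (15800 bp) scored 550.4 and 527.8, with 2 islands in each. At chr17:25029801-25044600 (14800 bp) the islands began and ended at the same positions, with scores of 466.2 and 454.3. Only 3 of the 1023 domains had identical outer ends in both libraries.

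Among the 10 longest were also domains at chr29:41593001-41607800 (99 tender and 103 tough reads), chr3:15639601-15654400 (scores of 507.9 and 428.3), chr19:28397801-28412400 (539.1 and 430.0) and chr2:20815001-20829400 (222.4 and 282.2). Over all 10, the log2 ratio of tender to tough score lay between -0.34, on chromosome 2, and 0.33, on chromosome 19. None of the 10 longest domains reached a 2-fold difference of score. A high score did not need great length. Among the domains, that at chr23:7233601-7242800, 9200 bp long, had the second highest tender score (665.9, with 505.8 in tough), and chr1:80175601-80189000 (13400 bp) the second highest tough score (609.2, with 546.6 in tender). At chr29:44272001-44283800 (11800 bp) the scores were 573.7 and 385.5, a log2 ratio of 0.57.

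The domains held a larger share of the score and of the covered length than of the islands. The rule picked long regions, so the larger share of covered length was set by the choice. With 9.51% of the tender and 9.71% of the tough islands, they carried 15.7% of the tender and 16.8% of the tough score, and 17.0% (4.74 Mb) and 19.2% (5.91 Mb) of the covered length. Of the 100 merged regions with the highest tender score, 80 were broad domains, as were 78 of the 100 with the highest tough score. Of the 1000 highest, 357 and 390 were broad. Because the score is a sum over windows, a long region scores high by its length. Ranked by score per window instead, 23 of the 1000 densest shared regions in the tender library and 13 in the tough library were broad domains. An island must reach a minimum score to be listed, so short regions enter this ranking with a high score per window.

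Per domain, the tender score ran from 23.2 to 982.5 with a median of 130.4 (quartiles 79.2 and 202.5). The tough score ran from 26.3 to 787.3 with a median of 115.9 (quartiles 73.6 and 174.2). In the shorter shared regions the medians were 73.6 and 62.6. Divided by the covered windows, the order turned round. The median score per window was 6.16 against 7.91 in the tender and 4.24 against 5.79 in the tough library, domains first. No listed island scored below 23.2 (tender) or 25.2 (tough), so a short island is listed only with a high score per window. The part of this floor in the order was not tested.

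The score per window followed a shallow valley along length. In the tender library the median fell from 14.5 in shared regions under 1 kb to 6.29 at 4 to 5 kb and 5.81 at 5 to 6 kb, and was then 6.19 at 6 to 8 kb, 6.60 at 8 to 10 kb and 7.48 from 10 kb on. In the tough library the same medians went from 11.4 through 4.25 to 3.98, and then to 4.25, 4.67 and 5.33. In both libraries the lowest median therefore lay in the class just above the limit, and the longest domains were denser than the shortest. The floor in island score bears most on the shortest classes, and its part in the fall was not tested. The share of the merged length that both libraries covered had the same shape. Its median was 75% under 1 kb, 56.0% at 5 to 6 kb and 68.0% from 10 kb on.

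**Figure D2:**
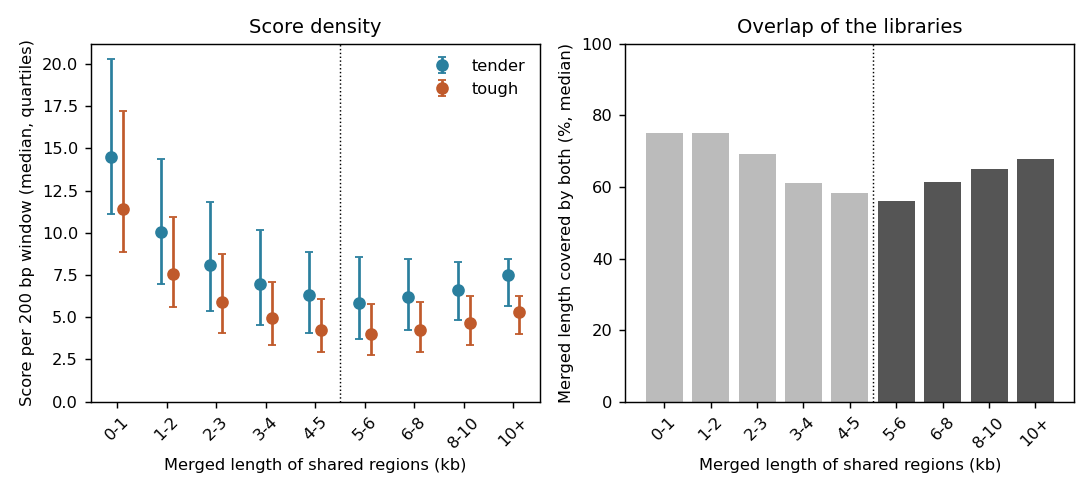
Left, median score per 200 bp window of shared regions by merged length in kb, for the tender and the tough library, with bars for the quartiles; right, median share of the merged length covered by both libraries, in percent. The dotted line marks 5 kb, and in both plots the lowest class is 5 to 6 kb, with higher values in the longer domains.

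Most domains reached 5 kb of island length in 1 library and not in the other. Covered lengths reached 5000 bp in both libraries in 278 domains (27.2%). In 455 domains (44.5%) the tough library alone covered that much, in 145 (14.2%) the tender library alone, and in a further 145 (14.2%) neither did, so that only the merged outline was broad. The domains that were broad in both libraries had the highest scores, with medians of 219.6 in the tender library and 191.0 in the tough library, and both libraries covered a median of 77.6% of their length. Domains broad in the tough library alone had medians of 106.5 and 105.8 and a common share of 52.8%. Where the tender library alone was broad, the medians were 126.7 and 87.1, and where neither was, 88.8 and 73.7 with a common share of 44.4%.

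The domains found in 1 library only were weak. Merged regions of 5 kb or more without an island of the other library numbered 99, of which 17 were tender and 82 tough. Their median scores were 51.4 and 42.5, their median reads 23 and 21, and their median scores per window 1.94 and 1.55. All 3 medians lay below those of the shared domains. The shared domains needed a listed island in each library, whereas these regions had none in the other. The comparison is therefore a description and not a test.

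Tough islands covered more of the domains. The covered length had a median of 4600 bp in the tender library (quartiles 3200 and 5600) and 5400 bp in the tough library (quartiles 4800 and 6600). The tough library was the longer one in 726 domains (71.0%, 95% exact Clopper-Pearson interval 68.1% to 73.7%), the tender library in 260 (25.4%), and 37 were equal. In the shorter shared regions the tough library was longer in 58.8%. A covered length at least 1.5-fold longer in the tough library was found in 354 domains (34.6%, 31.7% to 37.6%), against 28.1% of all shared regions, and at least 1.5-fold longer in the tender library in 83 (8.11%, 6.51% to 9.96%), against 9.29%. The rule used length, so nothing is read from these shares.

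**Figure D3:**
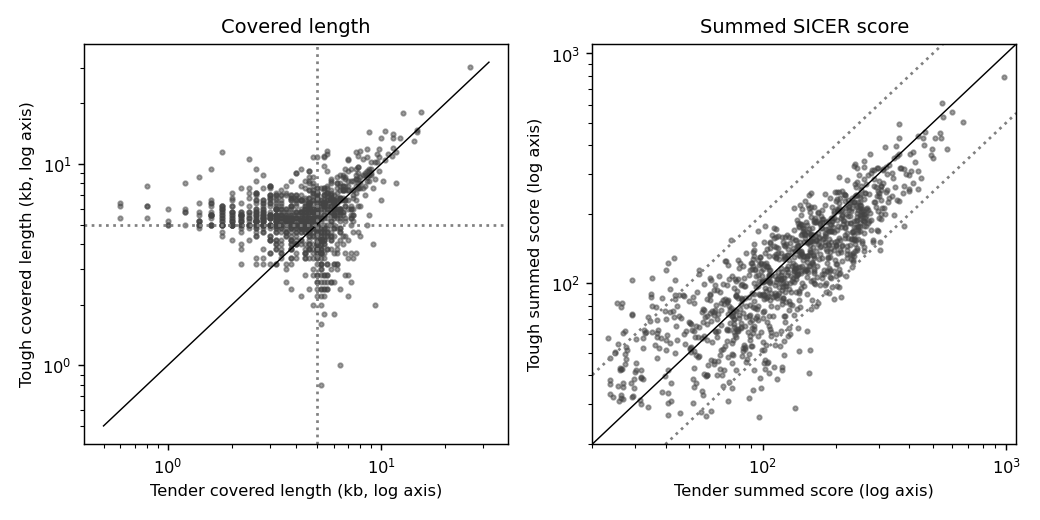
Each of the 1023 domains by its tender (x axis) and tough (y axis) covered length in kb (left) and summed SICER score (right), on log axes, with the solid line at equality and dotted lines at 5 kb (left) and at 2-fold differences (right). On the left 726 domains lie above the line of equality, and on the right 623 lie below it.

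Of the summed length of all domains, 59.6% was covered by both libraries, 28.96% by the tough library alone and 11.4% by the tender library alone. Of the tough-only base pairs 91.0%, and of the tender-only base pairs 91.4%, lay outside the outermost islands of the other library. Where each library had 1 island, as in most domains, such base pairs can lie nowhere else. The tough outline reached beyond the tender outline on both sides in 377 domains (36.9%) and the reverse held in 115 (11.2%).

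The balance of score went the other way. The tender score was the higher one in 623 domains (60.9%, 57.8% to 63.9%) and the tough score in 400 (39.1%). The scores of the libraries are not on the same scale. A window with the same number of reads scores higher in the tender library, whose mean reads per window were lower. The part of this in the balance of score was not tested. The median log2 ratio of tender to tough score was 0.13 (quartiles -0.22 and 0.46), against 0.20 in the shorter shared regions, so relative to the median of all shared regions the domains leaned to the tough library by -0.06. At least 2-fold higher scores in the tender library were found in 46 domains (4.5%, 3.31% to 5.95%), against 7.38% of all shared regions. At least 2-fold higher scores in the tough library were found in 28 domains (2.74%, 1.83% to 3.93%), against 1.79%. With islands of at least 2 times the lowest score only, the share in tough was 0.366% of 820 domains against 0.581% of all shared regions, so the domains no longer stood above the background. These ratios use the same islands as the choice of the domains, and with 1 library per group they compare libraries and not conditions.

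Before scaling by depth, the domains with counts held slightly more tough than tender reads. Reads could be counted in both libraries in 886 domains (86.6%). The others, 122 without a tender and 76 without a tough count, held an island above the score limit or without a single answer, so the strongest domains are left out of the read values below. Domains with a count held a median of 44 tender reads (quartiles 29 and 61, n = 901) and 46 tough reads (quartiles 31.5 and 62, n = 947), against 26 and 25 in the shorter shared regions. Per kb covered this came to 10.5 tender and 8.33 tough reads in the domains and 14.0 and 11.5 in the shorter regions. Windows with enough reads to score made up a median of 75% of the tender and 73.1% of the tough covered windows, against 83.3% and 81.8%.

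After scaling by depth, the median ratio of tender to tough reads was 1.13 in the domains and 1.21 in the shorter regions. Tender reads made up 49.6% of all reads in the counted domains, 51.2% in the shorter regions and 46.2% by the depths alone. Scaled reads were at least 2-fold higher in the tender library in 43 of the 886 domains (4.85%, 3.53% to 6.48%), against 5.97% of all shared regions with counts. They were at least 2-fold higher in the tough library in 22 (2.48%, 1.56% to 3.74%), against 0.715%. Reads were counted within each library's own islands, which the rule also used, so nothing is read from these shares.

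The domain with the largest excess of tender score lay at chr7:4094801-4104200. A single tender island with a score of 135.9 and 59 reads covered its whole 9400 bp, while the tough library had 13 reads in an island of 2000 bp with a score of 28.7. The log2 ratio of scores was 2.25, and tender reads made up 81.9% of the reads (71.1% to 90.0%). At chr11:24529401-24536800 the tender library had 61 reads over 7400 bp and the tough library 19 over 3400 bp (log2 ratio of scores 1.93). At chr19:34102001-34107600 it had 40 reads against 12 (1.89). In each of these the tough island lay within or at the edge of a longer tender island.

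The domains at chr25:20095801-20100800 and chr15:40493801-40501000 followed, with 54 tender against 22 tough reads and 46 against 18, and log2 ratios of scores of 1.61 and 1.58. Over these 5 domains the tender share of reads was 71.1% to 81.9%, and the lowest lower bound was 59.2%. Reads were counted within each library's own islands, which differed in length. The 46.2% that the depths alone give is therefore not a like comparison. Per kb covered, tender and tough reads were 6.28 and 6.50 at chr7:4094801-4104200, and 8.24 and 5.59 at chr11:24529401-24536800. The 5 domains were picked as the extremes of 1023 domains, so these shares describe them and do not test a difference.

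The largest excess of tough score lay at chr10:15391201-15397800, where the tough library had 41 reads over 6600 bp with a score of 103.0 and the tender library 13 reads over 2600 bp with 29.2, a log2 ratio of -1.82. At chr10:87005001-87011200 a tough island of 6200 bp with 37 reads lay over a tender island of 800 bp with 10 reads (log2 ratio -1.69). At chr22:51228801-51236800 a tough island of 8000 bp with 39 reads lay over a tender one of 1200 bp with 11 reads (-1.63). In each, a shorter tender island lay inside a longer tough one. Tender and tough reads per kb covered were 12.5 and 5.97 at chr10:87005001-87011200, and 9.17 and 4.88 at chr22:51228801-51236800. At chr10:15391201-15397800 the tough island was the denser one, with 5.00 tender and 6.21 tough reads per kb.

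The domains at chr26:44674201-44680000 (12 tender and 36 tough reads) and chr25:3340801-3345800 (15 and 43) had log2 ratios of -1.60 and -1.59. Tender shares of reads over these 5 domains were 21.3% to 25.9%, with a highest upper bound of 39.6%, again from islands of unlike length. The numbers behind all 10 extremes were small, from 10 to 61 reads per library.

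Of the 1023 domains, 805 (78.7%) held 1 island of each library, against 98.5% of the shorter shared regions. A pair of tender islands faced 1 tough island in 140 domains, and 1 tender island faced a pair of tough islands in 53. In 15 domains each library had 2 islands. Broken domains were more common at greater length. The share with 1 island each was 89.6% at 5 to 6 kb and 76.1% at 6 to 8 kb. It was 54.8% at 8 to 10 kb and 37.0% from 10 kb on. Several islands of 1 library are joined only by islands of the other, which also lengthens the merged region. Nothing is therefore read from these shares by length. The tender library was the broken one, counting domains with several tender islands and more than in the tough library, in 150 domains (14.7%) and the tough library in 53 (5.18%).

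The domains named next had the most islands of 1 library over 1 island of the other. Where both libraries could be counted, their reads before scaling by depth were of a like number. At chr22:51893601-51905200 the tender library had 3 islands with 101 reads in all, and the tough library 1 island of 10400 bp with 87. At chr5:26157201-26168600 the tender library had 3 islands and the tough library 1, with 93 reads each. At chr19:28397801-28412400, 3 tender islands held 177 reads and faced 1 tough island of 14600 bp.

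The reverse was seen at chr28:41653801-41666200, where the tender island scored 368.5 and the tough islands 286.6 and 32.4. At chr17:64847201-64859000, 1 tender island of 45 reads faced 2 tough islands of 17 and 23 reads. At chr22:56281401-56292400 the tender island scored 250.7 and the tough islands 98.1 and 129.0. Gaps between islands of a library are stretches where no island of that library was listed.

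The domains were unevenly spread over the chromosomes. Chromosome 19 held 114 of them, more than any other, and there 18.0% (15.1% to 21.3%) of the 632 shared regions were broad. Chromosomes 22, 29 and 7 followed with 15.9%, 15.5% and 13.5%. The lowest shares were on chromosomes 6, with 7 of 234 regions (2.99%, 1.21% to 6.07%), 12 (3.73%) and 9 (5.26%). In the second pair of lists chromosome 22 was highest (18.3%, with 16.8% on chromosome 19) and chromosome 9 lowest (2.84%), while chromosomes 6 and 12 had 4.42% and 5.70%. In the analysed lists the intervals of chromosomes 7, 19, 22 and 29 lay above the 10.7% of all chromosomes. Those of chromosomes 1, 6, 8, 9, 10 and 12 lay below it. Neighbouring regions are not independent, so no p-value was computed.

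**Figure D4:**
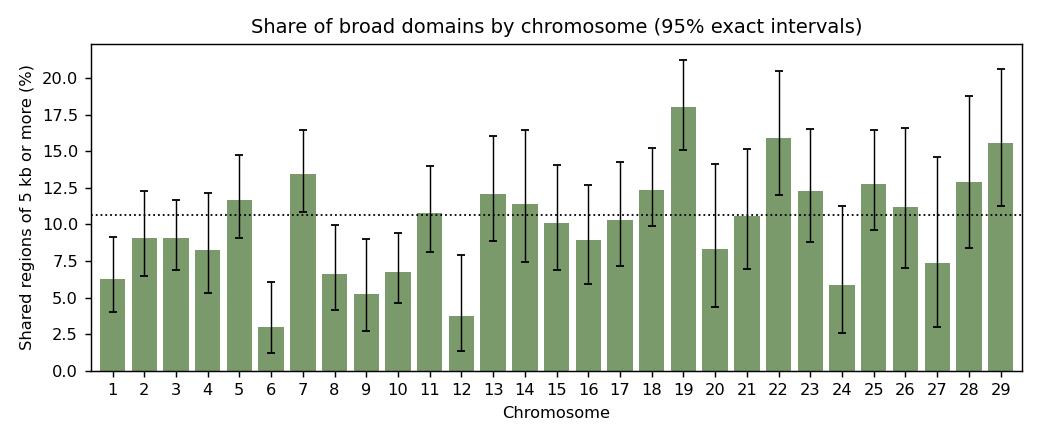
Share of the shared regions of each chromosome that were 5 kb or longer, in percent, with 95% exact intervals for counting error as bars, and a dotted line at the share over all chromosomes (10.7%). In these lists chromosome 19 had the highest share (18.0%) and chromosome 6 the lowest (2.99%).

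Per Mb, up to the last island, chromosome 19 had 1.78 domains, chromosome 25 1.17 and chromosome 18 1.15, and chromosome 6 had 0.0587. These chromosomes also held many shared regions of any length, with 9.89, 9.14 and 9.30 per Mb. The tough library covered more in all 8 domains of chromosome 24, where the median log2 ratio of scores was -0.41. On chromosome 6, with 7 domains, the median was 0.72. Each rests on few domains.

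Domains were somewhat more frequent near the far ends of chromosomes. In the last 5 Mb before the last island, 93 of 719 shared regions were broad (12.9%, 10.6% to 15.6%). In the first 5 Mb the share was 11.0% (8.39% to 14.0%) and elsewhere 10.4% (9.80% to 11.1%). The intervals overlapped.

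The fullest 1 Mb bin was on chromosome 7 from 4000001 to 5000000. It held 12 domains among 27 shared regions, from 5600 to 10200 bp long with a median of 7200 bp. The tough library covered more in 10 of the 12 and the tender score was higher in 10 of the 12. The bin also held the domain of the largest tender excess, at chr7:4094801-4104200. A neighbour at chr7:4686401-4695800, of the same 9400 bp, leaned the other way with 29 tender and 57 tough reads (log2 ratio of scores -0.81). The longest in the bin, at chr7:4529001-4539200, had scores of 283.9 and 154.9. Bins on chromosome 19 from 51000001 and from 27000001, and on chromosome 5 from 26000001, held 9 domains each, among 26, 39 and 28 shared regions.

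Domains lay where other H3K4me3 regions were close. The nearest other merged region of either library was a median of 10000 bp away, against 24400 bp for the shorter shared regions. Within 100 kb of its edges a domain had a mean of 4.93 other regions and a median of 4, against 3.32 and 2. No neighbour within 100 kb was found for 88 domains (8.60%, 6.96% to 10.5%), against 16.1% of the shorter regions. The positions of other merged regions were not used in choosing the domains. The merging did decide, however, which islands joined a domain and which stayed as neighbours. With neighbours 10 to 100 kb away only, a setting chosen after seeing the data, the means were 4.22 and 2.94.

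Crowding was greater around the longer domains. The nearest region was a median of 14000 bp away at 5 to 6 kb, 9300 bp at 6 to 8 kb, 4000 bp at 8 to 10 kb and 4600 bp from 10 kb on. The median number within 100 kb was 4 in the shorter pair of classes and 6 in the longer pair. The difference from the shorter regions was seen within most chromosomes, with a higher mean around domains on 24 of 29 and a lower one on 5, namely 9, 14, 20, 23 and 27. It ran from -0.27 regions on chromosome 9 to 2.64 on chromosome 5.

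**Figure D5:**
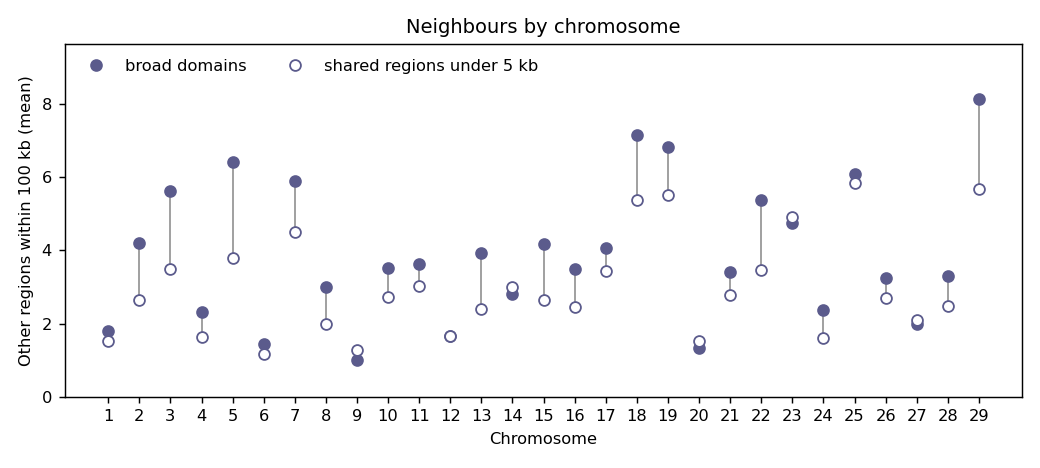
Mean number of other merged regions within 100 kb of broad domains (filled) and of shared regions under 5 kb (open), by chromosome. The filled point is the higher one on 24 of 29 chromosomes, with the widest gap on chromosome 5 (6.41 against 3.77).

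Domains also lay near each other. Another domain was found within 100 kb of 400 domains (39.1%), and a domain lay within 100 kb of 22.3% of the shorter shared regions. The median distance from a domain to the next was 180600 bp. Nearest of all was the pair at chr29:43609401-43619600 and chr29:43619601-43626400, which touched without overlap. The left member scored 291.2 in the tender library and 261.4 in the tough library, and the right one only 87.2 and 61.3.

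Gaps of up to 5 kb joined 78 domains (7.62%) into 39 pairs and no longer chain, a limit set with the values in view. The widest pair ran over chr5:26183401-26211400, 28000 bp of which 97.1% lay in domains, and included the third longest domain. Its members together scored 631.8 in the tender library and 571.5 in the tough library. The pair at chr2:20806401-20829400 spanned 23000 bp with scores of 472.6 and 450.5, that at chr10:20843601-20865200 21600 bp with 470.2 and 526.4, and that at chr17:25029801-25051200 21400 bp with 668.9 and 703.6. The widest pair was thus shorter than the longest single domain by itself.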

How the data were processed

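H3K4me3 ChIP-Seq gave 1 library of pooled chromatin per group. According to the methods and the submitters' processing notes, the authors aligned reads with Maq, allowing 1 mismatch and dropping duplicates and reads with several positions, and called islands with SICER 1.1 (window 200 bp, gap 400 bp, E-value 100). The deposited values are SICER scores per island; no control library is named in the sources used here. Each group had 2 deposited lists on different coordinates. The list that the definition of the domains names was used (12930 tender and 11535 tough islands with all chromosomes), and the other (12452 and 11395) served as an alternative. By its island numbers and its end on chromosome X, the second appears to be the peak set that the study describes, called on bosTau4.

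Islands overlapping by 1 bp were merged per chromosome (Python 3.11.15, numpy 2.4.6, pandas 2.3.3, scipy 1.17.1). Scores and covered bp were summed per library and region. Reads were recovered from scores up to 250 within 1.5e-09, and after shifting the scores by 1e-06 no island matched. The scripts were tested on simulated data. Shares have 95% Clopper-Pearson intervals. Nothing was tested between groups, which have 1 library each. Called means at least 2-fold in score or scaled reads, or 1.5-fold in length.

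Regions named are the 10 longest, the 5 highest scores per library, the 5 largest ratios each way, the most broken (up to 3 per library), 3 either side of 5000 bp, and the nearest pair. Fullest bins and pairs of domains were named after values were seen. The members and lists were chosen with earlier results of these data known. Alternatives changed the length limit, overlap, gap, score threshold, chromosomes, centring, comparison regions and neighbour distance. Gene and sequence features were not analysed here.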

Additional observations from a re-analysis of the deposited data

Results flagged for a closer look

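Chromosomes outside 1 to 29 were not used in choosing the domains and also held long shared regions. The mitochondrial chromosome had 1 merged region, 16200 bp long, with scores per window of 6.02 (tender) and 10.4 (tough). It is a region of called islands, and whether its reads reflect H3K4me3 was not tested. Chromosome X had 5 shared regions of 5000 bp or more among 223 (2.24%), of 6400 bp at most.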

How the results depend on the processing

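The number of domains depended on the definition. It was 2152 from 4000 bp, 523 from 6000 bp, 54 from 10000 bp, 278 with 5000 bp covered in each library and 641 where islands had to overlap by 50% of both. With 5000 bp covered in each library the domains held 6.68% of the tender and 6.98% of the tough score and 6.89% and 6.85% of the covered length. Islands of at least 2 times the lowest score left 14.0% of shared regions broad, 89.4% of domains with 1 island each and 0.366% at least 2-fold higher in tough. Centring on all shared regions turned the median log2 ratio of scores to -0.0567, with 2.15% of domains at least 2-fold higher in tender and 4.89% in tough. Against shared regions of 2000 to under 5000 bp, the score per window was lower by a difference of -1.17 in tender and -1.05 in tough. The mean excess of neighbours was 0.999 within 50 kb, 2.81 within 250 kb and 0.999 for shared neighbours. Chosen after seeing the data, neighbours 10 to 100 kb away gave 1.28, and the second list gave 1.60 neighbours, score shares of 16.6% and 17.8%, length shares of 17.8% and 19.5%, and rank 2 for chromosome 19, behind 22. The other 24 alternative values kept their direction and lay within 1.5 times the count reported or within the 95% counting interval of the share or median reported (a rank stayed the same). Low read numbers limit every single-domain ratio. No paired analysis was possible because each group has 1 library.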
